A study of Mus musculus with 48 samples.

Results

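A set of 10 genes of corticosteroid signalling was examined in blood and medial prefrontal cortex (mPFC) of mice: the receptors Nr3c1 and Nr3c2, the receptor co-chaperones Fkbp4 and Fkbp5, the enzyme Hsd11b1, and the glucocorticoid targets Sgk1, Tsc22d3, Zbtb16, Ddit4 and Klf9. They were chosen by name, and all 11 probes carrying the names of these 10 genes were taken from the 55681 non-control probes of the array, which hold 34844 distinct names. Nr3c1 had 2 probes and each of the other genes had 1. The animals were female C57BL/6J mice, 17 weeks old, that had undergone either a sham operation or bilateral removal of the ovaries (ovariectomy, OVX) and afterwards lived with or without chronic ultra-mild stress (CUMS), giving sham-operated unstressed mice (control), CUMS mice, OVX mice and OVX+CUMS mice. Ovariectomy removes the main source of circulating oestrogen and serves here as a model of menopause, and CUMS is a lasting schedule of mild stressors. That schedule included a night with the lights on and a reversed light/dark cycle at weekends. Under pentobarbital at 50 mg/kg, heparinized blood and the mPFC were taken from the same 24 mice, 6 per group, so that 48 one-colour arrays were available.

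Glucocorticoids, mainly corticosterone in mice, bind the glucocorticoid receptor encoded by Nr3c1 and the higher-affinity mineralocorticoid receptor encoded by Nr3c2. The unliganded glucocorticoid receptor is held by Hsp90 with co-chaperones of the immunophilin family, enters the nucleus after binding the hormone, and activates genes through palindromic response elements. Several of its targets dampen the response, among them Fkbp5, which lowers the hormone affinity of the receptor and is widely used as a readout of glucocorticoid exposure in blood and brain.

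Levels are given throughout as log2 signal relative to the 75th percentile of the same array, so that 0 is a probe as bright as that percentile and levels of different probes are not compared. A main effect is the difference between the means of mice with and without a factor, averaged over the other factor, and a call means an adjusted p under 0.05 in limma over all detected probes of the tissue (20767 in blood and 28358 in mPFC). The 24 mice were separate animals, so p-values measure the spread between mice. Mice shared cages, several stressors were changes to the cage, and the labels do not name the cages. Differences between cages can therefore not be told apart from those between groups. The 75th percentile signal ran from 54.9 to 192 in blood and from 572 to 689 in mPFC, and the 3 dimmest blood arrays were those of CUMS mice 2, 6 and 5 (54.9 to 79.4). The arrays of each tissue lay on 3 slides. Slide 1 held all controls and CUMS mice 1 and 2, slide 2 held CUMS mice 3 to 6 and OVX mice 1 to 4, and slide 3 held OVX mice 5 and 6 and all OVX+CUMS mice. Controls and OVX+CUMS mice never shared a slide, and their slides cannot be told apart from their groups. In these bulk samples fewer cells of a type and less RNA per cell cannot be told apart. Listed neuron, astrocyte and oligodendrocyte markers were detected in mPFC (6 of 6, 5 of 5 and 5 of 5 genes) and in part in blood (2 of 6, 2 of 5 and 5 of 5). Listed red cell, B cell, T cell and neutrophil markers were detected in blood (4 of 5, 4 of 4, 5 of 5 and 7 of 7 genes) and in part in mPFC (3 of 5, 2 of 4, 2 of 5 and 3 of 7). Detection of the oligodendrocyte list thus did not set the tissues apart.

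Promoters of the members were searched for the response element of the receptor. RefSeq windows of the 250 bases before a transcription start (GRCm38) were at hand for 8 of the 10 members, 15 windows in all, and Nr3c1 and Zbtb16 had no entry. The palindrome made of AGAACA and its reverse complement TGTTCT with any 3 bases between them, which reads alike on both strands, occurred in 3 of 32851 windows (0.00913%), of which 1 was a window of Sgk1. The hexamer alone, searched on both strands and so also counted inside the palindrome, occurred in 5284 windows (16.1%), among them 4 member windows, 3 of Sgk1 and 1 of Tsc22d3. The Sgk1 window with the palindrome and the Tsc22d3 window are shown with hexamers and the palindrome in capitals, because the element is the sequence through which the receptor is known to act. The Sgk1 window lies at chr10:21993640-21993889 on the plus strand and its palindrome at chr10:21993701-21993715, 189 bases before the start. The Tsc22d3 window lies at chrX:140600523-140600772 on the minus strand and its hexamer starts 185 bases before the start. A match of letters is a description and was not tested for binding.
Sgk1: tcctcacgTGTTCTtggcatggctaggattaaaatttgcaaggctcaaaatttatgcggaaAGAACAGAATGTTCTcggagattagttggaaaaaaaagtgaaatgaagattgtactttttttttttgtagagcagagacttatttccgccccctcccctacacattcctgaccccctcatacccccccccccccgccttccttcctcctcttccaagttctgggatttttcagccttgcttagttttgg
Tsc22d3: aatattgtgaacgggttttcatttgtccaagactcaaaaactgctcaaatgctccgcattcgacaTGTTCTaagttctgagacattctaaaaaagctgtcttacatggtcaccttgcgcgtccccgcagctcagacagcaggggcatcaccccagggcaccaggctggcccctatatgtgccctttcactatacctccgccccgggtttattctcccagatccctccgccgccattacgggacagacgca

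Nr3c1 differed between groups in blood. The brighter probe, A_55_P1967885 (mm9 chr18:39571641-39571700), had a lowest, median and highest level of 3.11, 3.24 and 3.43 in control mice and of 2.28, 2.91 and 3.35 in CUMS mice. The same values were 3.30, 3.53 and 3.65 in OVX mice and 2.86, 3.24 and 3.45 in OVX+CUMS mice. The OVX group was highest and the CUMS group lowest, and 4 of the 6 CUMS mice fell below the control range. Nr3c1 was lower with CUMS by a log2 change of -0.33 (SE 0.10, limma adjusted p = 0.00947, 0.794-fold), the single member probe of 10 tested that passed, where 48.5% of all blood probes did. It was higher with OVX by 0.26 (SE 0.10, limma adjusted p = 0.0294, 1.20-fold), and without OVX+CUMS mouse 2 that change was 0.23 and was not called (limma adjusted p = 0.0541). Within slide 2, the 4 CUMS mice lay between 2.80 and 3.35 and the 4 OVX mice between 3.30 and 3.54, a difference of -0.43 (limma adjusted p = 0.0377), in a comparison that called 52.2% of all blood probes. The CUMS change of Nr3c1 with slide as a block was -0.49 (limma adjusted p = 0.0108), in a fit that called 49.7% of all blood probes for CUMS, whereas the OVX change was -0.066 with a 95% interval of -0.50 to 0.37 and was not called.

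The other Nr3c1 probe, A_52_P254174 (mm9 chr18:39574183-39574242), was dim in blood and gave no call there. Its lowest and highest levels were -1.94 and -1.56 (control), -2.64 and 0.26 (CUMS), -1.88 and -1.41 (OVX), and -1.81 and -1.22 (OVX+CUMS). The value of 0.26 belonged to CUMS mouse 2, the mouse with the dimmest blood array. The CUMS change of this probe was 0.06 with a 95% interval of -0.35 to 0.48, so the probes of Nr3c1 disagreed in sign for CUMS. Without CUMS mouse 2 the OVX change of this probe was 0.34 and was called (limma adjusted p = 0.00725), against 0.15 with that mouse (limma adjusted p = 0.543).

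Nr3c2 varied widely in blood. Its lowest, median and highest levels were 0.11, 0.33 and 0.87 (control), 0.51, 1.38 and 1.75 (CUMS), -0.94, 0.47 and 0.90 (OVX) and -0.62, -0.13 and 0.74 (OVX+CUMS). The CUMS mice were highest, and the lowest values came from OVX mice 5 and 6 (-0.84 and -0.94), whereas OVX mice 1 to 4 lay between 0.35 and 0.90. OVX mice 5 and 6 were the OVX mice on slide 3. The main effect of OVX on Nr3c2 was a log2 change of -0.75 (SE 0.22, limma adjusted p = 0.00698, 0.593-fold). With slide as a block that change was 0.012, with a 95% interval of -0.77 to 0.79, and was not called, whereas the CUMS change, 0.36 and not called without the block (limma adjusted p = 0.165), was 0.75 (limma adjusted p = 0.0175). Within slide 2, Nr3c2 was higher in CUMS than in OVX mice by 0.74 (limma adjusted p = 0.0202). The interaction was -0.94 with a 95% interval of -1.84 to -0.03 and did not pass (limma adjusted p = 0.272).

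The co-chaperones and Hsd11b1, which regenerates active glucocorticoid inside cells, were not called in blood for any effect. Fkbp5 had a lowest, median and highest level of 1.27, 1.37 and 1.48 (control), 0.86, 1.53 and 1.98 (CUMS), 1.03, 1.34 and 1.50 (OVX) and 1.13, 1.21 and 1.37 (OVX+CUMS). CUMS mice lay on both sides of the control range and no group separated from another. The CUMS change of Fkbp5 was -0.01 with a 95% interval of -0.23 to 0.20, and the OVX change was -0.13 with an interval of -0.34 to 0.09. Fkbp4, whose product carries the hormone-bound receptor toward the nucleus, ranged from -0.76 to 0.13 over the 24 mice, with group medians of -0.47, -0.16, -0.19 and -0.26 in the order control, CUMS, OVX and OVX+CUMS. Hsd11b1 was the steadiest member in blood, from 1.94 to 2.27 over all mice, with group medians of 2.05, 2.13, 2.08 and 2.12. Its value was the mean of 10 spots per array, whereas each other member probe had 1.

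Among the targets, Sgk1 and Ddit4 were called higher in blood for the main effect of OVX. Sgk1, a kinase that promotes sodium retention and cell survival, had a lowest, median and highest level of 0.59, 1.13 and 1.31 in control mice and of 0.12, 0.75 and 1.24 in CUMS mice. Those values were 0.95, 1.42 and 1.95 in OVX mice and 0.99, 1.37 and 2.43 in OVX+CUMS mice. Each OVX group overlapped the controls, and the highest value was that of OVX+CUMS mouse 5. The OVX change of Sgk1 was 0.54 (SE 0.16, limma adjusted p = 0.00794, 1.45-fold), and it was 0.44 without OVX+CUMS mouse 5 (limma adjusted p = 0.0112). That mouse also had a summed neutrophil marker level of 3330, where its 5 group mates had 326 to 503, and the part of these cells in its Sgk1 level was not tested.

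Ddit4, an inhibitor of mTOR complex 1, had a lowest, median and highest level of 0.84, 2.10 and 2.27 in control mice and of 0.96, 1.25 and 1.62 in CUMS mice. It lay at 1.45, 2.01 and 2.40 in OVX mice and at 1.54, 1.96 and 2.41 in OVX+CUMS mice. Of the 6 control mice, 4 lay above every CUMS mouse, and the other controls lay in or below the CUMS range. The OVX change of Ddit4 was 0.45 (SE 0.16, limma adjusted p = 0.0221, 1.36-fold) and the CUMS change was -0.23 with a 95% interval of -0.56 to 0.10. The medians of both ovariectomized groups lay below the control median. Their means were 1.965 (OVX) and 1.968 (OVX+CUMS), against 1.752 in control and 1.286 in CUMS mice, so the wider gap was between the stressed groups. OVX+CUMS mice differed from control mice by 0.22 (95% interval -0.25 to 0.68), which was not called. Within slide 2, Ddit4 was lower in CUMS than in OVX mice by a log2 difference of -0.70 (limma adjusted p = 0.0192).

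OVX thus changed 4 of 10 member probes in blood, 3 higher and Nr3c2 lower, where 55.1% of all blood probes were called, 27.4% higher and 27.7% lower. Under a slide block none of the 10 members and 0 of 20767 probes were called for OVX (adjusted p under 0.05), the change of Sgk1 was 0.02, and that of Ddit4 was 0.50, close to its 0.45 without the block (limma adjusted p = 0.848 with it). Only slide 2 held mice with and without OVX, so the block estimates OVX changes with less precision. The absence of calls there does not show that there was no change. Without CUMS mouse 2, the dimmest blood array, 5 member probes were called for OVX, and without OVX+CUMS mouse 5 the count was 4. The CUMS count was 1 in each case.

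The remaining targets were not called in blood. Tsc22d3, which encodes the anti-inflammatory leucine zipper protein GILZ, had a lowest, median and highest level of 4.56, 5.01 and 5.06 (control), 4.23, 4.73 and 5.09 (CUMS), 4.52, 5.08 and 5.28 (OVX) and 4.55, 4.88 and 5.31 (OVX+CUMS). Its OVX change was 0.19 (95% interval -0.05 to 0.43) and its CUMS change was -0.16 (95% interval -0.40 to 0.08). Zbtb16, a zinc finger transcription factor strongly induced by glucocorticoids, ranged from -0.66 to 0.07, with its lowest group median, -0.52, in OVX+CUMS mice. Its interaction was -0.30 with a 95% interval of -0.60 to -0.01 and did not pass (limma adjusted p = 0.272). Klf9, a transcription factor of the Kruppel-like family, was detected on 23 of 24 blood arrays, on 5 of 6 in CUMS mice, and was therefore not tested in blood, where its levels ran from -2.64 to -1.20.

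Neither the interaction nor the direct comparison of OVX+CUMS with control mice was called for any member in blood. For the interaction 0 of 10 probes passed in limma, against 1.42% of all probes, and 2 had an unadjusted p under 0.05, Nr3c2 and Zbtb16. For OVX+CUMS against control mice 0 of 10 passed, against 6.26% of all probes, and 0 had an unadjusted p under 0.05. The changes in that comparison lay between -0.39 (Nr3c2) and 0.37 (Sgk1), and under a slide block both turned sign, to 0.76 and -0.40, neither called.

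**Figure D1:**
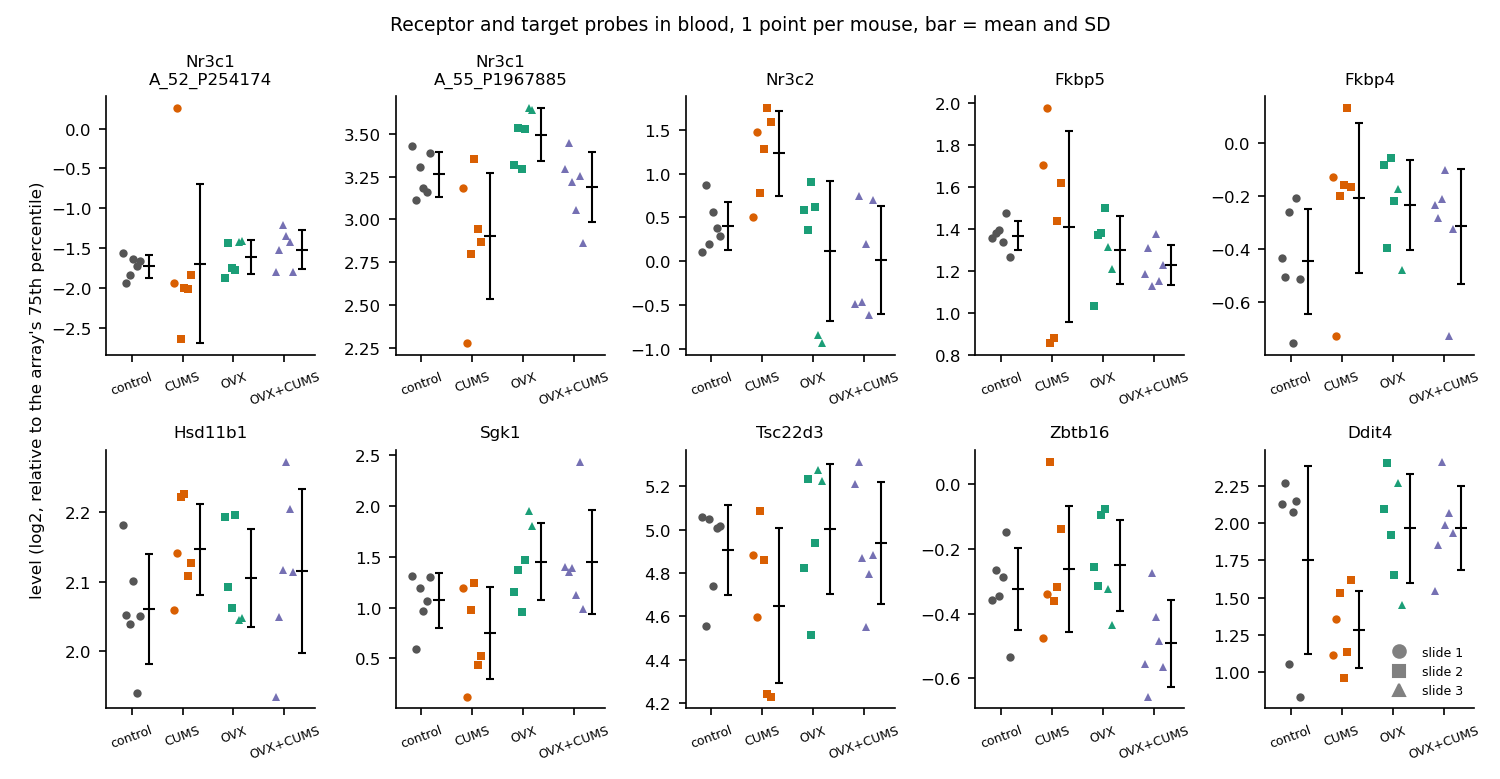
Level of each tested probe in blood (y axis, log2 signal relative to the 75th percentile of the array) in the 4 groups (x axis); each point is a mouse, its shape gives the slide, and the bar shows the mean and SD of 6 mice. Nr3c1 (A_55_P1967885) was lowest in CUMS mice, and Nr3c2 was highest in CUMS mice, with OVX mice 5 and 6 (slide 3) at -0.84 and -0.94.

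Within groups, the blood level of Sgk1 was correlated with those of Nr3c1 and Nr3c2, in opposite directions. Over deviations from the group means in 24 mice, 45 pairs of member probes were correlated and 2 passed by both coefficients. Sgk1 rose with Nr3c1 (A_55_P1967885; Pearson r = 0.705, Spearman rho = 0.794, permutation p adjusted over the pairs 0.00765 and 0.00157), and r was 0.636 without the 2 mice farthest from the median. Sgk1 fell as Nr3c2 rose (r = -0.747, rho = -0.776, adjusted permutation p = 0.00225 and 0.00157), and r was -0.718 without the 2 farthest mice. With the means of each group on each slide removed, r was 0.689 and -0.743.

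Red cell markers moved with these members. All 4 detected erythroid genes were lower with OVX and all 4 were higher with CUMS in blood, and their summed level spanned 7400 to 12500 (control), 9350 to 17700 (CUMS), 5290 to 8350 (OVX) and 6710 to 9240 (OVX+CUMS). The fifth listed gene, Hbb-b1, had no probe under that name. Against this summed level, within-group deviations had r = -0.826 and rho = -0.841 for Nr3c1 (adjusted permutation p = 0.0009 and 0.0006), r = -0.756 and rho = -0.834 for Sgk1 (0.0009 and 0.0006), and r = 0.687 and rho = 0.757 for Nr3c2 (0.0016 and 0.0006), adjusted over 60 pairs of a member probe and a marker list. Without the 2 mice farthest from the median r was -0.755, -0.871 and 0.651, and with the means of each group on each slide removed it was -0.811, -0.709 and 0.689. The summed level is itself relative to the 75th percentile of the array, so a low percentile raises it. CUMS mouse 2 had the highest summed level (17700) and the lowest percentile signal (54.9). OVX mouse 5 had the lowest summed level (5290) and the highest percentile signal (192). These pairs were chosen after the values were seen. The part of red cell RNA, or of the array scaling, in the changes of Nr3c1, Sgk1 and Nr3c2 and in these r was not tested.

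**Figure D2:**
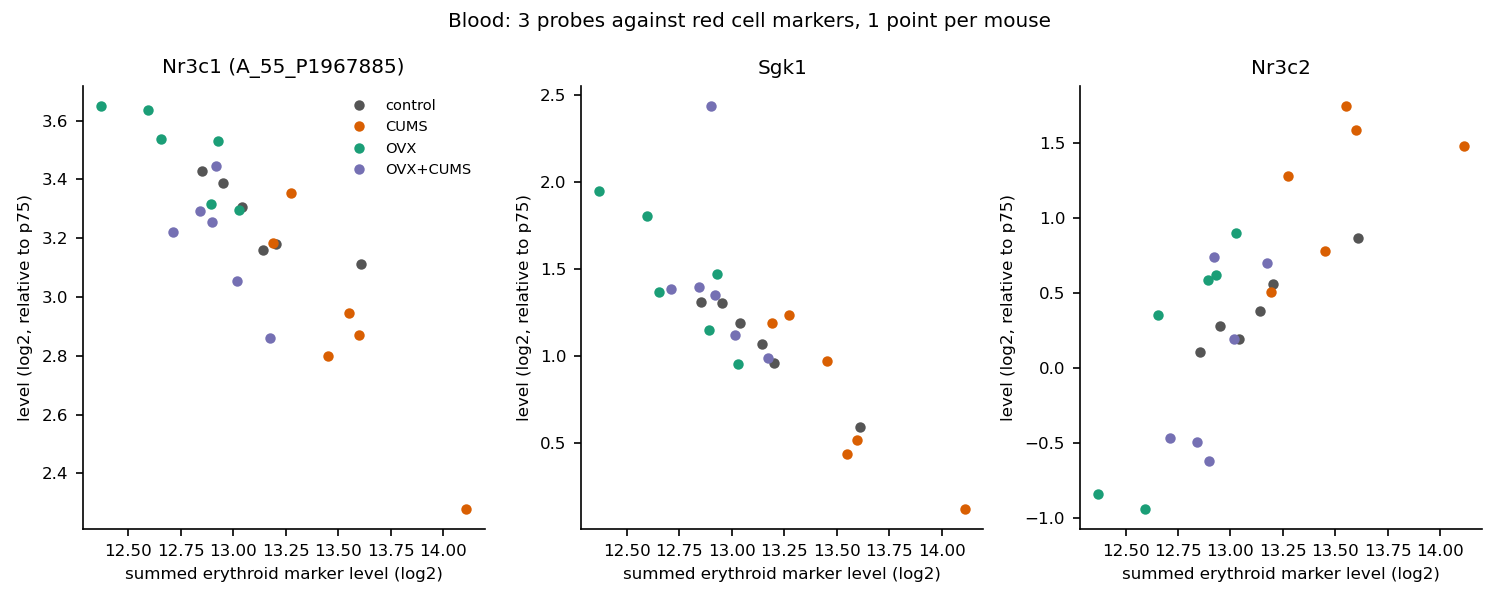
Level of Nr3c1 (A_55_P1967885), Sgk1 and Nr3c2 in blood (y axes, log2 relative to the 75th percentile) against the summed level of the erythroid markers of the same mouse (x axis, log2); each point is a mouse, coloured by group. Nr3c1 and Sgk1 were low and Nr3c2 was high in mice with high erythroid levels, with within-group r of -0.826, -0.756 and 0.687. Both axes are relative to the 75th percentile of the same array.

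White cell markers also differed between the groups. Of 5 B cell probes 3 were higher with OVX and 4 were lower with CUMS, and their summed level was 201 to 292 in control, 135 to 232 in CUMS, 312 to 381 in OVX and 132 to 317 in OVX+CUMS mice. Nr3c1 and the B cell level had r = 0.545 and rho = 0.702 within groups (adjusted permutation p = 0.141 and 0.0096). Of the T cell probes 2 were lower with OVX and 4 were lower with CUMS. The part of these cells in the member changes was not tested.

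In mPFC, OVX changed 2 of 11 member probes, both higher, where 30.9% of all mPFC probes were called, 19.1% higher. Hsd11b1 (mm9 chr1:195048169-195048228, the mean of 10 spots per array) had a lowest, median and highest level of 0.67, 0.83 and 1.37 in control mice and of 0.40, 0.83 and 0.99 in CUMS mice. It lay at 0.94, 1.06 and 1.22 in OVX mice and at 0.85, 1.23 and 1.41 in OVX+CUMS mice. Both ovariectomized groups had higher medians, and the highest control mouse lay within the range of the OVX+CUMS mice. Its OVX change was 0.30 (SE 0.081, limma adjusted p = 0.00749, 1.23-fold), and OVX+CUMS mice exceeded control mice by 0.31 (SE 0.11, limma adjusted p = 0.0428), the only member probe of 11 called in that comparison, where 33.4% of all probes were. The latter call was lost when control mouse 2, 3, 4 or 6 or OVX+CUMS mouse 1, 2, 3, 4 or 6 was left out, with differences of 0.26 to 0.32 (limma adjusted p = 0.0556 to 0.101). Its OVX change with slide as a block was of the same size, 0.32, with a 95% interval of -0.07 to 0.71, and was not called.

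Nr3c2 lay below the 75th percentile in all mPFC samples and was higher with OVX. Its lowest, median and highest levels were -2.20, -2.11 and -1.75 (control), -2.39, -1.95 and -1.60 (CUMS), -1.72, -1.59 and -1.30 (OVX) and -2.45, -1.86 and -1.61 (OVX+CUMS). All OVX mice lay above all control mice, whereas OVX+CUMS mice spanned the control range. The OVX change was 0.26 (SE 0.093, limma adjusted p = 0.0375, 1.20-fold), it passed in 17 of the 34 alternative settings, and with slide as a block it was 0.046 and was not called. The call was lost without control mouse 1, 3, 5 or 6, CUMS mouse 1 or 2, OVX mouse 1, 3 or 4 or OVX+CUMS mouse 1, 2 or 4, with changes of 0.22 to 0.26 (limma adjusted p = 0.0502 to 0.0733). The interaction was -0.40 with a 95% interval of -0.78 to -0.01 and did not pass (limma adjusted p = 0.197).

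Nr3c1 was steady in mPFC. A_55_P1967885 ran from 4.16 to 4.60 over the 24 mice with group medians of 4.26, 4.37, 4.42 and 4.42 in the order control, CUMS, OVX and OVX+CUMS, and its OVX change was 0.11 (95% interval 0.02 to 0.19, limma adjusted p = 0.0547). Leaving out control mouse 1, CUMS mouse 4, 5 or 6, OVX mouse 4 or OVX+CUMS mouse 2 or 5 brought that change past the threshold (0.11 to 0.12, limma adjusted p = 0.0259 to 0.0499). A_52_P254174 ran from -0.68 to -0.08 with group medians of -0.53, -0.42, -0.47 and -0.27. Neither probe was called for any effect in mPFC with all mice.

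Fkbp5 gave no call in mPFC. Its lowest, median and highest levels were 1.37, 1.56 and 1.84 (control), 1.15, 1.43 and 1.89 (CUMS), 1.24, 1.44 and 1.82 (OVX) and 1.14, 1.36 and 1.52 (OVX+CUMS), and all groups overlapped. The CUMS change was -0.12 (95% interval -0.27 to 0.04), and OVX+CUMS mice differed from control mice by -0.24 (95% interval -0.46 to -0.02, limma adjusted p = 0.0864). When arrays were instead scaled on the 7 spike-in probes, which are RNAs added in equal amount, the median change of all mPFC probes was -0.12 for OVX, -0.12 for CUMS and -0.23 for OVX+CUMS against control (0.04, 0.01 and 0.06 under the percentile scaling), and Fkbp5 was then called lower in all 3 (-0.29, -0.25 and -0.53, limma adjusted p = 0.0125, 0.0393 and 0.00105), where 33.1%, 24.2% and 50.1% of all mPFC probes were called. With percentile scaling and slide as a block the same 3 changes of Fkbp5 were 0.20, 0.041 and 0.24, and none was called.

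Fkbp4 ranged from 0.74 to 1.17 in mPFC with group medians of 0.89, 1.07, 0.99 and 0.93. Its interaction was -0.23 with a 95% interval of -0.40 to -0.06 and did not pass (limma adjusted p = 0.0953).

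The targets gave no call in mPFC. Sgk1 had group medians of 2.37, 2.58, 2.51 and 2.50 in the order control, CUMS, OVX and OVX+CUMS, and its CUMS change was 0.11 (95% interval -0.04 to 0.27). Tsc22d3 had medians of 3.45, 3.56, 3.50 and 3.68, with a CUMS change of 0.12 (95% interval -0.06 to 0.31). Ddit4 had medians of 3.26, 3.85, 3.63 and 3.65, with a CUMS change of 0.18 (95% interval -0.12 to 0.47). These medians were higher in every treated group than in control mice, with overlapping ranges, and the intervals of the CUMS changes included 0. Zbtb16 had medians of 3.43, 3.41, 3.36 and 3.33. Klf9, detected on all 24 mPFC arrays, had medians of 3.85, 3.90, 3.84 and 3.76 and the tightest range in OVX mice, 3.81 to 3.87. For CUMS 0 of 11 member probes passed in limma, against 4.19% of all probes, and 0 had an unadjusted p under 0.05. For the interaction 0 of 11 passed, against 4.49% of all probes, and 2 had an unadjusted p under 0.05, Fkbp4 and Nr3c2.

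**Figure D3:**
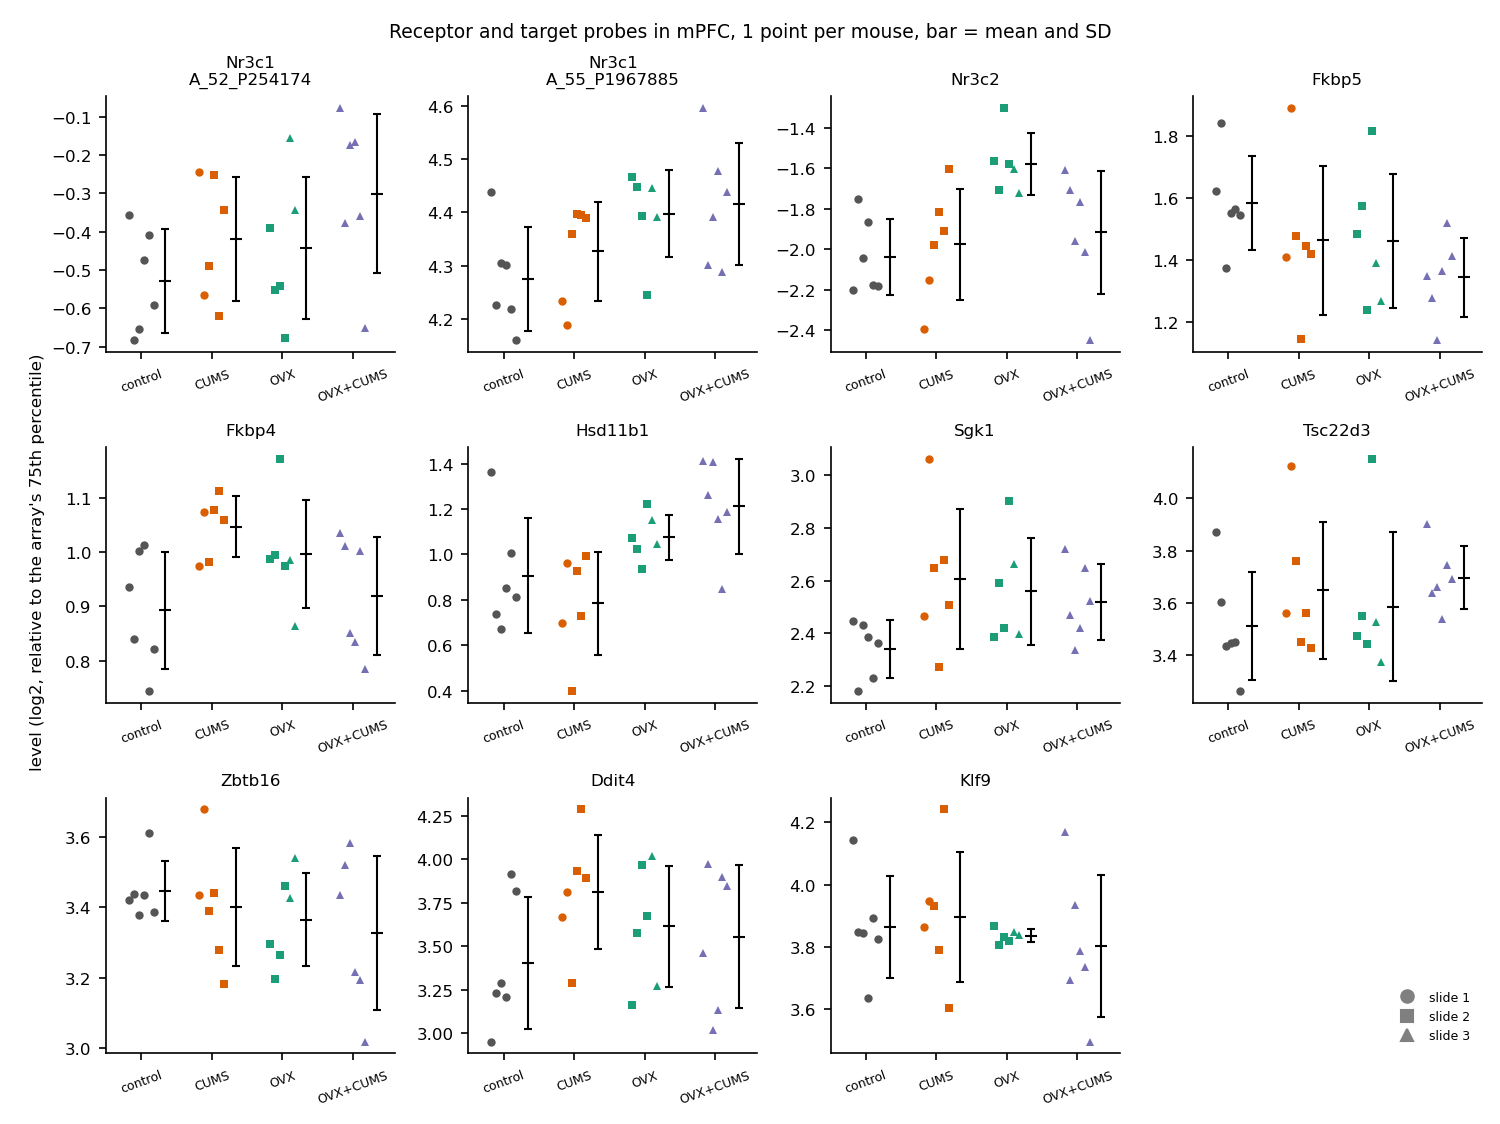
Level of each probe in mPFC (y axis, log2 signal relative to the 75th percentile of the array) in the 4 groups (x axis); each point is a mouse, its shape gives the slide, and the bar shows the mean and SD of 6 mice. All OVX mice lay above all control mice for Nr3c2, and Hsd11b1 had its higher medians in OVX (1.06) and OVX+CUMS (1.23) mice.

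Cell type markers were given beside these results. Of 8 microglia probes 6 were higher and 1 was lower with OVX in mPFC, with summed levels of 56.8 to 62.5 in control, 56.1 to 72.3 in CUMS, 63.2 to 73.2 in OVX and 61.8 to 75.7 in OVX+CUMS mice. Among 55 pairs of a member probe and a marker list in mPFC none passed by either coefficient in the permutation test, with r from -0.536 to 0.654. Of the T cell genes 2 of 5 were detected in mPFC, and their summed level followed the slide: on slide 1 it was 9.72 to 11.4 for the controls and 9.17 and 11.1 for CUMS mice 1 and 2, and it was 6.02 to 6.32 for CUMS mice 3 to 6, 5.72 to 6.79 for OVX mice and 6.10 to 7.03 for OVX+CUMS mice. The part of microglia or T cells in the changes of Hsd11b1 and Nr3c2 was not tested.

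Within groups, Tsc22d3 was correlated with Sgk1 and with Fkbp5 in mPFC by Pearson r alone. Of 55 pairs of member probes in mPFC, 2 passed by Pearson r and none by Spearman rho. Sgk1 and Tsc22d3 had r = 0.77 and rho = 0.587 (adjusted permutation p = 0.0154 and 0.121), with r = 0.686 without the 2 mice farthest from the median. Fkbp5 and Tsc22d3 had r = 0.743 and rho = 0.64 (adjusted permutation p = 0.03 and 0.0863), and r dropped to 0.487 without the 2 farthest mice, so this relation rests largely on those mice. CUMS mouse 2 (Tsc22d3 4.13, Sgk1 3.06 and Fkbp5 1.89) and OVX mouse 4 (4.15, 2.90 and 1.82) were the highest of their groups for all 3 genes, whereas control mouse 2 had the highest Fkbp5 (1.84) and the lowest Sgk1 (2.18) of its group.

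**Figure D4:**
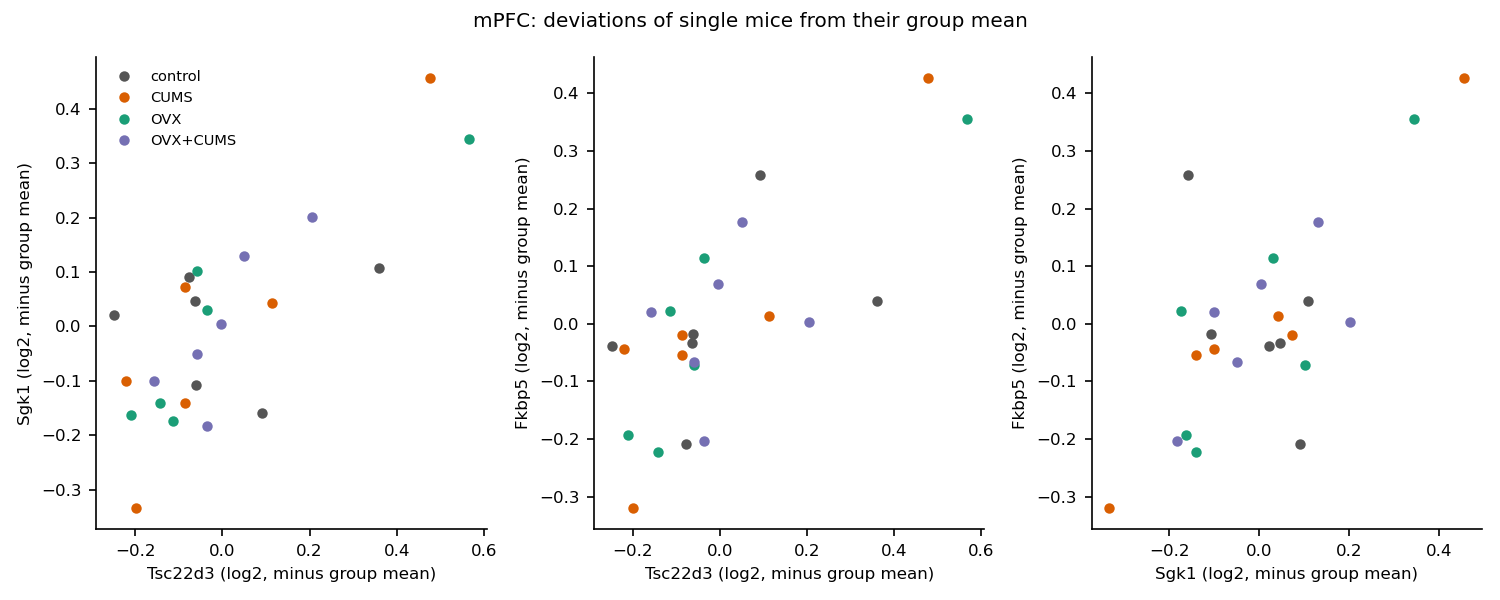
Deviation of each mouse from its group mean in mPFC (both axes, log2) for Tsc22d3 against Sgk1, Tsc22d3 against Fkbp5 and Sgk1 against Fkbp5; each point is a mouse, coloured by group. Sgk1 and Tsc22d3 had r = 0.77, and CUMS mouse 2 and OVX mouse 4 lay at the upper right of each panel.

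Blood and mPFC of the same mouse were compared to ask whether blood followed the brain. For none of the 10 probes tested in both tissues did the correlation between them pass, over 24 mice after removal of the group means. The r ran from -0.213 (Ddit4) to 0.482 (Fkbp5). Fkbp5 had rho = 0.172, with unadjusted permutation p = 0.0572 and 0.462 for r and rho, adjusted 0.572 and 0.888. Its r was 0.389 without the 2 mice farthest from the median. With no group mean subtracted it was 0.506 and did not pass after adjustment. The lack of a pass does not show that there was no correlation.

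The main effects differed between tissues for several members when the difference itself was tested, with the mouse as a random block. For OVX 3 of 10 probes passed, where 39.3% of the 17544 probes detected in both tissues did. Nr3c2 fell in blood and rose in mPFC, a difference of blood minus mPFC of -1.01 (SE 0.24, limma adjusted p = 0.00104). Hsd11b1 differed by -0.29 (SE 0.091, limma adjusted p = 0.0104) and Sgk1 by 0.47 (SE 0.18, limma adjusted p = 0.0300), and the Sgk1 difference was not called without CUMS mouse 2 or 5 or OVX mouse 5 or 6 (0.36 to 0.43, limma adjusted p = 0.0548 to 0.092). For CUMS 1 of 10 passed, Nr3c1 (A_55_P1967885) at -0.37 (SE 0.10, limma adjusted p = 0.00371), against 51.4% of all probes. None of the OVX differences was called with slide as a block, and the CUMS difference of Nr3c1 was then -0.46 (limma adjusted p = 0.0164), where 38% of all probes were called. With that block the CUMS difference was also called for Nr3c2 at 0.99, Sgk1 at -0.63 and Tsc22d3 at -0.53 (limma adjusted p = 0.0107, 0.0427 and 0.0407).

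**Figure D5:**
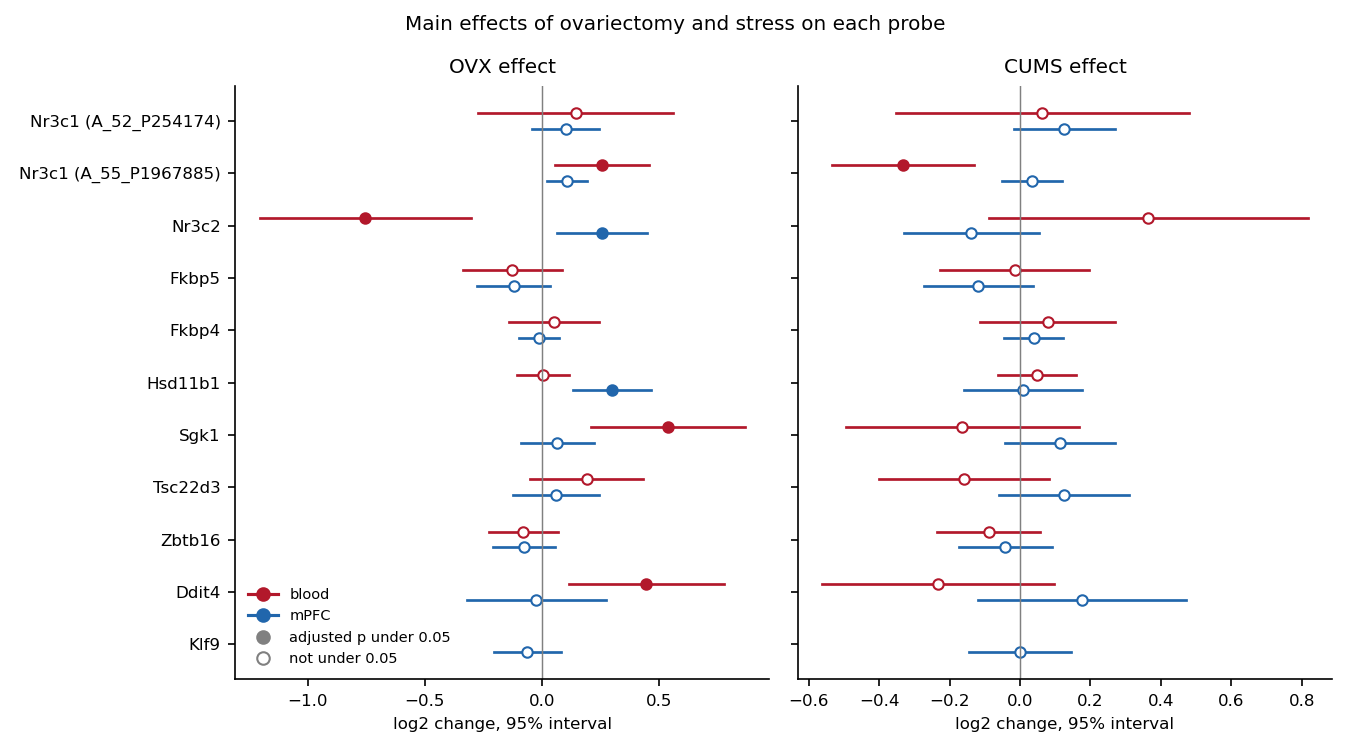
Main effect of OVX (left) and CUMS (right) on each probe (x axes, log2 change with its 95% interval) in blood and mPFC; filled points passed an adjusted p of 0.05 and Klf9 was tested in mPFC alone. Nr3c2 shows opposite OVX changes in the tissues, -0.75 in blood and 0.26 in mPFC, and Nr3c1 (A_55_P1967885) was the probe called for CUMS, in blood at -0.33.

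In control mice every one of the 10 probes differed in level between blood and mPFC relative to the percentile of the array, as did 92.9% of all probes detected in both. Relative to that percentile, Nr3c2 stood 2.44 higher in blood (5.41-fold, limma adjusted p = 1.24e-09), Tsc22d3 1.39 higher and Hsd11b1 1.15 higher. Before scaling, the mean control signal of each of these genes was lower in blood than in mPFC. It was 143 against 160 for Nr3c2, 3372 against 7521 for Tsc22d3 and 461 against 1239 for Hsd11b1. Their direction, and the size of every tissue difference in level, thus depend on the scaling. The transcription factor Zbtb16 was 13.6-fold higher in mPFC (limma adjusted p = 4.1e-11), and Ddit4, Fkbp4, Sgk1 and both Nr3c1 probes were 2.02-fold to 3.14-fold higher there. Fkbp5 was closest between tissues, 1.16-fold higher in mPFC (limma adjusted p = 0.0285).

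Other genes of the pathway were taken from lists of receptor chaperones, corticosteroid metabolism, coregulators, other induced genes and Sgk1 relatives and substrates, 66 genes in all. In blood 78 of their probes were tested (53 genes), of which 23 were higher and 11 lower with OVX, 43.6% against 55.1% of all probes, and 6 were higher and 21 lower with CUMS, 34.6% against 48.5%. In mPFC 102 probes were tested (63 genes), of which 17 were higher and 5 lower with OVX, 21.6% against 30.9%, and 7 were higher and none lower with CUMS, 6.86% against 4.19%. That last count ran from 2 without CUMS mouse 6 to 14 without CUMS mouse 2. The median change of the listed probes was 0.13 for OVX and -0.07 for CUMS in blood, beside 0.04 and -0.03 for all probes, and 0.06 and 0.05 in mPFC, beside 0.04 and 0.01.

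Among other glucocorticoid-induced genes in blood, Mt1, a metallothionein, was lower with OVX by a log2 change of -0.81 (SE 0.13, limma adjusted p = 0.000107), and Nedd9, a scaffold protein, and Bcl6, a transcriptional repressor, were higher by 0.48 each (limma adjusted p = 0.00125 and 0.00523). With slide as a block these OVX changes were -0.26, 0.39 and 0.11, and none was called. Nedd9 was lower with CUMS by -0.40 (limma adjusted p = 0.0062). The circadian gene Per1 was lower with CUMS in blood, -0.36 (limma adjusted p = 0.00185), and higher with CUMS in mPFC, 0.33 (limma adjusted p = 0.0241). After blocking on slide the Per1 change in blood was -0.40 (limma adjusted p = 0.0119), and that in mPFC was 0.34 and was not called (limma adjusted p = 0.458). A further Per1 probe was not tested in either tissue. The part of the light changes of the CUMS schedule in the Per1 changes was not tested. In mPFC both probes of Arl4d, a small GTPase, were higher with CUMS by 0.35 and 0.33 (limma adjusted p = 0.0423 and 0.0284), and 5 of 37 probes of this list (13.5%, beside 4.19% of all probes) were called for CUMS, all higher. With slide as a block, or with no detection filter, no related probe was called for CUMS in mPFC. The phosphatase gene Dusp1 was not called for CUMS, with a change of 0.31 in mPFC (limma adjusted p = 0.0992) and 0.27 in blood (limma adjusted p = 0.195). In mPFC with OVX, Tat, a liver enzyme of tyrosine breakdown, was lower by -0.39 (limma adjusted p = 0.0404) and Pik3r1, a regulatory subunit of PI3 kinase, was higher by 0.24 (limma adjusted p = 0.000194). With slide as a block the change of Tat turned sign to 0.20 and that of Pik3r1 was 0.11, and neither was called.

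Among the chaperones and coregulators, the Hspa4 probe A_55_P2061025 was lower with OVX in blood by -0.77 (limma adjusted p = 0.000107). The Hspa4 probe A_55_P2054157 was lower with CUMS in blood by -0.50 (limma adjusted p = 0.000728). These probes went opposite ways with OVX. In the order control, CUMS, OVX and OVX+CUMS, the means of A_55_P2054157 were 3.13, 2.52, 3.30 and 2.91. Those of A_55_P2061025 were -0.40, -0.44, -1.31 and -1.08. Hsp90aa1 was not called in either tissue, and Hsp90ab1 was higher with OVX in mPFC by 0.10 (limma adjusted p = 0.00857). The phosphatase Ppp5c, which binds Hsp90, was lower with OVX in mPFC by -0.40 (limma adjusted p = 0.000154), and the corepressor Ncor1 was higher by 0.31 at A_52_P561927 (limma adjusted p = 0.000307). In blood with CUMS the steroid dehydrogenase Akr1c18 was higher by 0.45 (limma adjusted p = 0.0119). With slide as a block that change was 0.25 and was not called (limma adjusted p = 0.229). Hsd11b2, which inactivates glucocorticoids, was well above background on 1 of 24 arrays in each tissue and was not tested. No probe at all was called with slide as a block for OVX in either tissue or for CUMS in mPFC. With that block the OVX change of Hspa4 (A_55_P2061025) in blood was -0.20. In mPFC the OVX changes were then -0.037 for Ppp5c, 0.083 for Ncor1 and 0.045 for Hsp90ab1.

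The probes most like a member were those with the highest r of within-group deviations over 24 arrays, given as a description that shares arrays and their scaling. In blood these included Ankrd27 (0.949) and Sept7 (0.944) for Nr3c1, Serping1 (0.939), D430041D05Rik (0.919) and Cacna1s (0.905) for Fkbp5, Rnf13 (0.963), Cmtm6 (0.956) and Tnfaip8 (0.955) for Sgk1, and Cxcr4 (0.867), Cyb5b (0.85) and Atad2b (0.847) for Tsc22d3. In mPFC they were Flywch1 (0.825), Synj2 (0.822) and Mtap7 (0.803) for Nr3c1 and Hif3a (0.804), Sult1a1 (0.782) and Tlr13 (0.77) for Fkbp5. For Sgk1 they were Plin4 (0.818), Tsc22d3 (0.77) and U2af1l4 (0.757), and for Tsc22d3 they were 2010002N04Rik (0.905), Sult1a1 (0.824) and Hif3a (0.823). Sult1a1 and Hif3a were therefore shared by Fkbp5 and Tsc22d3 in mPFC.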

How the data were processed

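Blood and mPFC RNA was labelled with Cy3 and hybridised to Agilent SurePrint G3 mouse arrays, and the deposited files hold each array's scanner output from Feature Extraction 10.7.3.1, with intensity per spot (background-subtracted processed signal) on 62976 spots. Blood was spun and the cell pellet kept. The authors also deposited log2 values per probe; 100% of single-spot values equalled log2 processed signal minus the 75th percentile within 0.001 after an array constant of 0.00163 to 0.01, with array medians of -3.89 to -2.66. Their scale and direction were therefore known.

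From the intensity, spots of a probe were averaged and log2 values were shifted to the 75th percentile of the array. Probes were kept if detected on all 24 arrays of a tissue and above a raw intensity of 50 on at least 2. Effects of surgery, stress and their interaction were fitted with limma 3.58.1 in R 4.3.3, with Benjamini-Hochberg adjustment over all kept probes and calls at 0.05, as in the two-way analysis of the study's methods, which describe blood. The fit with the mouse as a random block compared tissues, with a consensus correlation of 0.059 between the blood and mPFC of a mouse. Permutation tests (two-sided, 100000 permutations of mice within groups) were run in Python 3.11.15 with scipy 1.17.1. Scripts were tested on simulated data. Groups came from the labels, mouse numbers are the labels' replicate numbers, and blood and mPFC were paired by these numbers.

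All member probes are reported. From the related lists the 2 largest called rises and falls per tissue and effect and all probes of Per1, Dusp1, Hsp90aa1, Hsp90ab1 and Hsd11b2 are named, and for Nr3c1, Fkbp5, Sgk1 and Tsc22d3 the 3 most alike probes; some results that this rule names are not reported here. Members and lists were chosen with earlier results of these data known. Alternatives were normexp, quantile, spike-in and detected-probe scaling, no detection filter, no moderation, slide and replicate blocks, and leaving out each mouse. Probe coordinates are those of the files (mm9); the annotation used here does not place probes in exons or untranslated regions. Promoters are from RefSeq (GRCm38). The precision of each value is limited by 6 arrays per group.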

Additional observations from a re-analysis of the deposited data

Results flagged for a closer look

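Single mice and tissue differences stood apart, 10 results in all. In 6 of 84 groups of 6 mice (7.14%) the highest or lowest mouse lay far from the other 5 for its range, where chance sets about 1 in 20 groups apart. In blood these were Nr3c1 (A_52_P254174) in CUMS mouse 2 (0.26, next -1.85), Fkbp4 in OVX+CUMS mouse 5 (-0.73, next -0.32) and Sgk1 in the same mouse (2.43, next 1.40). In mPFC they were Nr3c1 (A_55_P1967885) in OVX mouse 4 (4.25, next 4.39), Tsc22d3 in the same mouse (4.15, next 3.55) and Zbtb16 in control mouse 5 (3.61, next 3.44). CUMS mouse 2 had the dimmest blood array, and OVX+CUMS mouse 5 had the highest summed neutrophil marker level of its group in blood (3330) and in mPFC (5.51); the part of either in these values was not tested.

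A further 4 effects differed between blood and mPFC by a test of the difference itself, in limma with the mouse as a random block. Blood minus mPFC was -1.01 for Nr3c2, -0.29 for Hsd11b1 and 0.47 for Sgk1 with OVX, and -0.37 for Nr3c1 (A_55_P1967885) with CUMS. With slide as a block the OVX differences were -0.03, -0.30 and -0.23 and were not called.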

How the results depend on the processing

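The slide block and the spike-in shift changed the most counts. With slide as a block the member counts became 0 for OVX in blood (4 without it), 2 for CUMS in blood (1), 0 for OVX in mPFC (2), 0 for OVX+CUMS against control in mPFC (1), 0 for the tissue difference of OVX (3) and 4 for that of CUMS (1), and the related probes became 0 for OVX in blood (34), 0 for OVX in mPFC (22) and 0 for CUMS in mPFC (7). The spike-in shift, under which the median change of all blood probes was 0.41 for OVX and -0.33 for CUMS (0.04 and -0.03 without it), gave 7, 4, 4, 4, 9 and 2 in the same order for the members, 1 for CUMS in mPFC (0), and 52, 34 and 17 related probes. The 75th percentile over detected probes gave 1 member and 13 related probes for OVX in mPFC, and no detection filter gave 1 and 11, with 0 related probes for CUMS in mPFC. For OVX+CUMS against control in mPFC the member count was 0 with normexp, quantile normalization, no detection filter or no moderation. The tissue difference count was 5 for OVX with quantile normalization and 3 for CUMS with normexp. The counts of 0 in blood for the interaction and for OVX+CUMS against control, and in mPFC for the interaction, were the same in every setting run.

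Among member results called in either setting, signs turned with slide as a block for the OVX change in blood of Nr3c1 (A_55_P1967885, -0.066) and Nr3c2 (0.012). The OVX tissue difference of Sgk1 (-0.23) turned as well. With the spike-in shift signs turned for Fkbp4 in OVX+CUMS against control mPFC (-0.27) and the OVX tissue difference of Hsd11b1 (0.24). The cause was not tested. Over all 84 member effects 31 turned sign with the block, 29 of them not called without it, such as the Nr3c2 interaction in blood (0.30 with the block) and the OVX change of Fkbp5 in blood (0.34). The CUMS change of Nr3c1 (A_55_P1967885) in blood passed in all 34 alternatives, from -0.63 to -0.27. The OVX change of Hsd11b1 in mPFC passed in 32 of 34, and its OVX+CUMS change in 18 of 34.

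Leaving out each mouse in turn gave 3 to 5 members for OVX in blood (29 to 43 related probes), 1 to 1 for CUMS in blood (22 to 34), 1 to 3 for OVX in mPFC (15 to 22), 0 for CUMS in mPFC (2 to 14), 0 to 2 for OVX+CUMS against control in mPFC, 2 to 4 and 1 to 3 for the tissue differences of OVX and CUMS, and 0 for the other counts. Nr3c1 (A_55_P1967885) was not called for OVX in blood without OVX+CUMS mouse 2 (0.23), and A_52_P254174 was called without CUMS mouse 2 (0.34). The replicate block left 1 member called for OVX in mPFC and changed no other member count by over 1.5 times. Deviations of same-numbered mice of different groups had r from -0.508 to 0.488 (median -0.0931) in blood and -0.23 to 0.391 (median 0.0384) in mPFC over 36 pairs each. They were not compared with differently numbered mice, so whether equal numbers pair mice across groups was not tested. With no group mean subtracted 0 correlations between blood and mPFC passed, as with it. Array signal limited blood, where the 75th percentile was lower than in mPFC and Klf9 could not be tested.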
